A study of Mus musculus with 3 samples.

Results

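Among 9 genes of the interferon response in mouse bone marrow nucleated cells (BMNCs), 4 were at least 1.5-fold higher after irradiation with solvent than without irradiation, beside 6.71% of all genes tested. Those 4 genes, Irf7, Irf9, Parp9 and Parp14, were also at least 1.5-fold lower after irradiation with cannabidiol (CBD) than with solvent, beside 5.03%. The 9 members, of 56980 genes in the count matrices, were listed by name from the pathway, with earlier results of these data known. They are the transcription factors Irf7, Irf9, Irf1 and Stat2, the receptor chains Ifnar1 and Ifngr1, and Parp9, Parp14 and Dtx3l, which are linked to the PARP9 complex.

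The samples were 3 droplet single-cell RNA libraries of femur marrow from male C57BL/6 mice. The Control library came from mice that were not irradiated. The IR library came from mice given 6 Gy of Cobalt-60 gamma rays and the solvent, soybean oil with DMSO. The IR+CBD library came from mice given 6 Gy and CBD, injected intraperitoneally before and after irradiation. Marrow was taken at day 14 and pooled from 3 mice per library. The marrow was sorted by lineage markers and Kit and remixed at 5 parts Lin-Kit+, 4 parts Lin-Kit- and 1 part Lin+, so stem and progenitor cells were enriched and the shares of cell types are not those of whole marrow. With 1 library per group the differences between groups have no replicate check, and no test between conditions was made. All intervals cover counting error at the 95% level only, and a difference between libraries cannot be told apart from a difference between the pools of mice.

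Type I interferons, such as interferon alpha and beta, bind a receptor that contains the Ifnar1 chain, and the type II interferon gamma binds one that contains the Ifngr1 chain. The type I receptor signals through Stat2, which joins Irf9 in a complex that acts on interferon-stimulated response elements, whereas type II signalling acts on gamma-activated sites. Irf7 amplifies type I interferon production, and Irf1 is a target and mediator of the type II response. Parp9 forms a complex with the ubiquitin ligase Dtx3l, and Parp14 is an ADP-ribosyltransferase encoded next to both. Interferon signalling can drive haematopoietic stem cells out of quiescence.

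Cells were kept if they had at least 200 genes and at most 5% mitochondrial unique molecular identifiers (UMIs). This left 10674 Control, 10345 IR and 10273 IR+CBD cells with 194839224, 202361682 and 173466089 UMIs, and a median of 12480, 14211 and 12502 UMIs per cell. Levels were computed as UMIs per 1000000 summed UMIs (CPM) of a library. The libraries shared 26 to 34 cell barcodes pairwise, at most 0.331% of cells. The same sums were taken in 6 gates set by raw UMIs of marker genes. The Mpo gate (at least 5 Mpo UMIs, myeloid progenitors) held 2916 to 3294 cells per library, the Cd79a gate (at least 2, B lineage) 3456 to 4072 and the Retnlg gate (at least 5, mature neutrophils) 1004 to 1215. The Klf1 gate (at least 2, erythroid) held 586 Control, 1446 IR and 1181 IR+CBD cells. The Siglech gate (at least 3, plasmacytoid dendritic cells, pDCs, which make much type I interferon) held 273, 46 and 79. The gate for cells with at least 1 Cd34 and 1 Adgrl4 UMI held 3116, 1952 and 1970. In every library and gate, the markers of the intended cell type that the gate did not use were higher inside it than outside. The Cd34 Adgrl4 gate did not isolate stem cells, since 69.0%, 87.4% and 83.4% of its Control, IR and IR+CBD cells also passed the Mpo gate. Of the Mpo gate cells, 70.9%, 63.6% and 57.0% also passed another gate, so its values are not those of a separate group of cells.

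Irf7 had the largest difference among the 9 members. Its level was 5.75 CPM in Control (1121 UMIs), against 27.3 CPM in IR (5520 UMIs) and 6.74 CPM in IR+CBD (1169 UMIs). The IR library was high and the Control and IR+CBD libraries were low. The IR level was 4.74-fold that of Control (interval 4.45 to 5.06), and the IR+CBD level was 0.247 of that in IR (0.232 to 0.263). IR+CBD was 1.17-fold Control (1.08 to 1.27), but with the mean CPM over cells the direction turned (0.932). Of 23428 genes with at least 20 UMIs in Control and IR together, 84 (0.359%) had an IR over Control ratio as high as that of Irf7 or higher. In IR+CBD over IR, 66 of 23009 genes (0.287%) had a ratio as low or lower.

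Irf9, the DNA-binding partner of Stat2, was at 16.1, 31.7 and 19.1 CPM in the Control, IR and IR+CBD libraries. It was high in IR and low in the other libraries, with an IR over Control ratio of 1.97 (1.89 to 2.06) and an IR+CBD over IR ratio of 0.603 (0.578 to 0.629). IR+CBD stayed above Control by 1.19-fold (1.13 to 1.25). Stat2 differed less and stayed inside 1.5-fold. Its levels were 11.4, 13.8 and 10.9 CPM, so that IR was 1.20-fold Control (1.14 to 1.27) and IR+CBD was 0.794 of IR (0.748 to 0.842). Over all cells, Irf1 differed least among the transcription factors in IR over Control and in IR+CBD over IR. It was at 29.5, 31.8 and 28.0 CPM in Control, IR and IR+CBD, with ratios of 1.08 (1.04 to 1.12) and 0.883 (0.850 to 0.916).

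The receptor chains did not share this pattern. Ifnar1 was at 20.6 CPM in Control against 16.5 CPM in IR and 17.2 CPM in IR+CBD. It was highest in Control, with IR at 0.801 of Control (0.765 to 0.839) and IR+CBD within counting error of IR (ratio 1.04, 0.989 to 1.09). Ifngr1 was at 125, 133 and 132 CPM. IR was 1.07-fold Control (1.05 to 1.09), and IR+CBD was within counting error of IR (0.992, 0.974 to 1.01).

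The 3 genes of the PARP9 group were all highest in IR. Parp9 had 15.7, 28.6 and 16.7 CPM in Control, IR and IR+CBD, an IR over Control ratio of 1.82 (1.74 to 1.90) and an IR+CBD over IR ratio of 0.584 (0.559 to 0.611). Parp14 had 14.0, 23.7 and 14.2 CPM, and the same ratios were 1.69 (1.62 to 1.78) and 0.598 (0.570 to 0.628). Dtx3l had 17.5, 24.9 and 17.5 CPM and smaller ratios, 1.43 (1.36 to 1.49) and 0.702 (0.671 to 0.735). In IR+CBD over Control the intervals of Parp14 (0.959 to 1.07) and Dtx3l (0.953 to 1.05) held 1, and Parp9 was 1.06-fold Control (1.01 to 1.12), which turned to 0.967 without cells in more than 1 gate and to 0.992 with the mean CPM over cells.

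**Figure D1:**
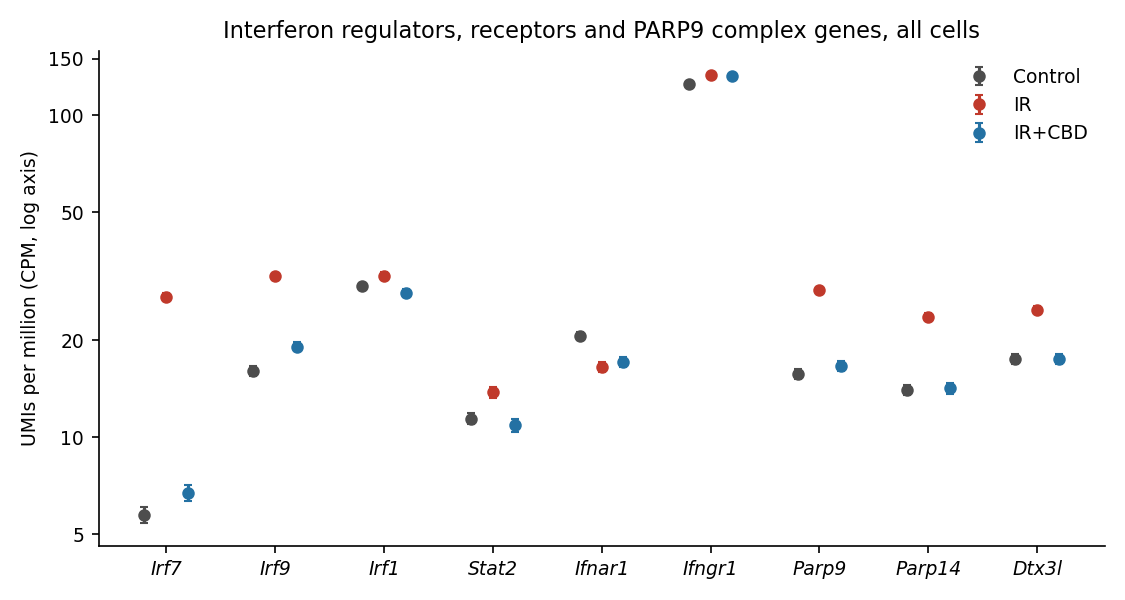
Level of each of the 9 genes over all kept cells, in CPM on a log axis, with 1 point per library (Control, IR, IR+CBD) and exact Poisson 95% intervals. Irf7 is at 27.3 CPM in IR against 5.75 in Control and 6.74 in IR+CBD, whereas the points of Irf1 and Ifngr1 lie close together.

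In IR over Control, 4 of 9 members (Irf7, Irf9, Parp9 and Parp14) were at least 1.5-fold higher, beside 6.71% of all genes tested, and 0 were as much lower, beside 12.3%. In IR+CBD over IR, the same 4 were at least 1.5-fold lower, beside 5.03% of all genes, and 0 were higher, beside 5.10%. In IR+CBD over Control, 0 members passed 1.5-fold in either direction, beside 16.4% of all genes. The median log2 ratio of the 9 members was 0.51 in IR over Control (all genes -0.06), -0.51 in IR+CBD over IR (all genes 0.00) and 0.02 in IR+CBD over Control (all genes -0.05). The first and second comparisons share the IR library, so a value particular to that library enters both. Just past the 1.5-fold limit stood Parp14 at 1.69 and just short of it Dtx3l at 1.43.

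**Figure D2:**
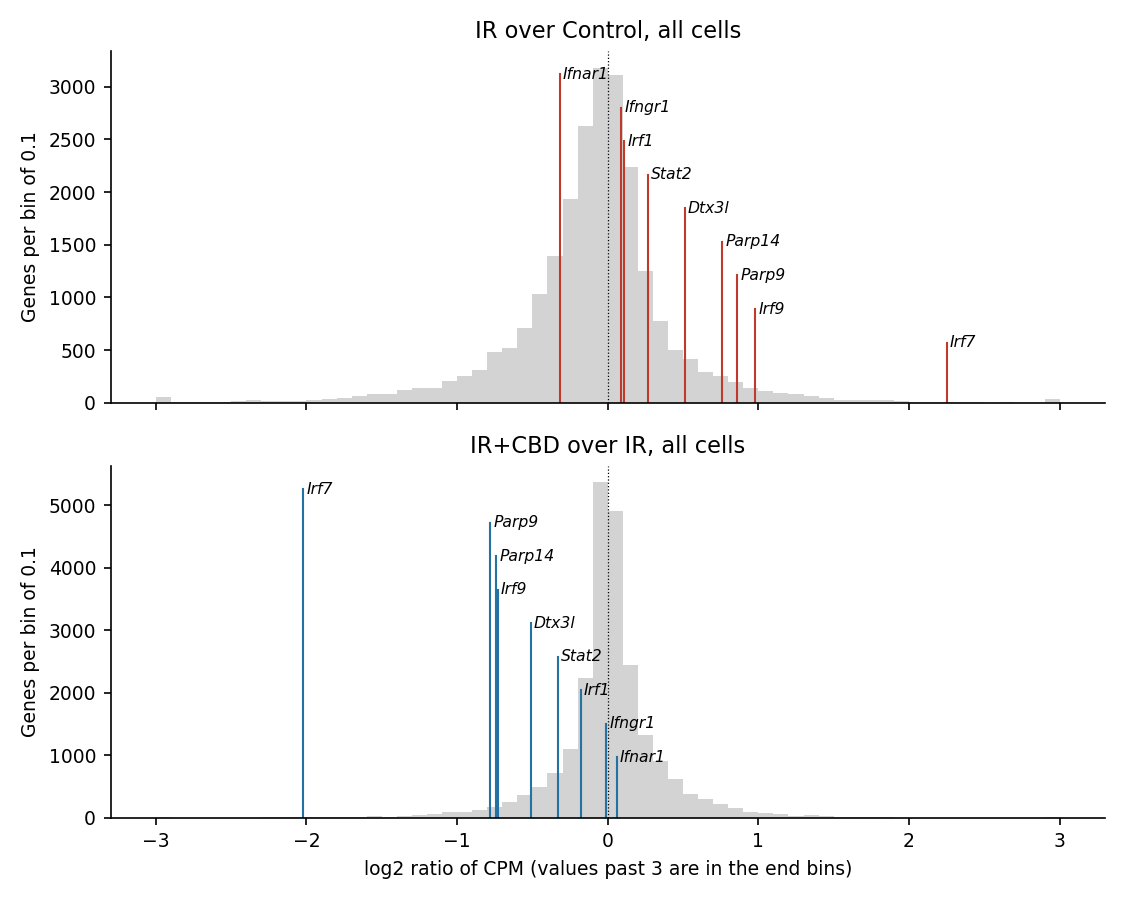
Distribution of the log2 ratio of CPM over all genes with at least 20 UMIs in the compared libraries together (grey bars, genes per bin of 0.1), for IR over Control (upper) and IR+CBD over IR (lower), all cells. Vertical lines mark the 9 members, whose heights carry no value, and Irf7 lies at 2.25 in the upper and -2.02 in the lower panel.

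The cell mixture differed between the libraries. The Klf1 gate held 5.49%, 14.0% and 11.5% of the cells of Control, IR and IR+CBD, and 13.4%, 47.1% and 39.5% of their Irf7 UMIs. The median cell of this gate had 39670, 42567 and 40039 UMIs, against 12480, 14211 and 12502 over all cells. Of the UMIs of all genes, it held 24361808 of 194839224, 63407837 of 202361682 and 48132080 of 173466089. Irf7 in this gate was at 6.16, 41.0 and 9.60 CPM, against 5.75, 27.3 and 6.74 CPM over all cells. In Control the intervals of these levels overlapped. The Siglech gate, with the highest Irf7 level, held 2.56%, 0.445% and 0.769% of the cells and gave 15.1%, 1.90% and 2.65% of the Irf7 UMIs. When the gates were weighted by their Control shares in every library, Irf7 was at 7.83, 32.7 and 8.13 CPM. The IR over Control ratio was then 4.17 for Irf7, 1.92 for Irf9, 1.73 for Parp9 and 1.54 for Dtx3l. The weights were shares of cells, whereas the level over all cells weights cells by their UMIs. Control, whose cell shares were unchanged, stood at 7.83 CPM with this weighting against 5.75 CPM over all cells. The weighted ratios thus differ from the unweighted ones in the unit of weighting as well as in the cell mixture. The part of the cell mixture in the Irf7 difference was not tested. With the same weighting, IR was at 0.907 of Control for Ifnar1, 1.02-fold for Ifngr1 and 1.21-fold for Irf1.

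Irf7 was higher in IR than in Control in all 6 gates and lower in IR+CBD than in IR in all 6. In the Mpo gate the Control, IR and IR+CBD levels were 2.23, 12.0 and 2.79 CPM. In the Klf1 gate they were 6.16, 41.0 and 9.60 CPM. The Klf1 gate had the highest IR over Control ratio of the gates, 6.66 (5.65 to 7.91), and IR+CBD there stayed 1.56-fold above Control (1.29 to 1.89). The Cd79a gate showed 3.61, 20.6 and 5.27 CPM (IR over Control 5.72, 4.69 to 7.03). The Retnlg gate showed 11.9, 60.1 and 13.5 CPM (5.04, 4.25 to 6.01). Among B-lineage and neutrophil cells, too, IR was high and both other libraries were low.

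The Siglech gate had the highest Irf7 level in each library, namely 53.1, 170 and 37.0 CPM in Control, IR and IR+CBD. Its IR over Control ratio, 3.21 (2.49 to 4.12), was the lowest of the gates, and its IR+CBD level was within counting error of Control (0.696, 0.458 to 1.03). In the Cd34 Adgrl4 gate the levels of Irf7 were 4.02, 14.3 and 3.68 CPM (IR over Control 3.56, 3.16 to 4.02). The IR+CBD over IR ratio of Irf7 varied little among gates, from 0.217 in the Siglech gate to 0.257 in the Cd34 Adgrl4 gate. By level, the order of the gates was Siglech, Retnlg, Klf1 and, lowest, Mpo in every library. The Cd79a and Cd34 Adgrl4 gates between Klf1 and Mpo did not differ beyond counting error in Control. In Control cells that passed 1 gate only, Cd34 Adgrl4 (11.7 CPM, 9.98 to 13.6) stood above Klf1 (5.29 CPM, 4.29 to 6.44). In IR and IR+CBD the intervals of these single-gate cells overlapped.

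The Siglech gate held only 46 cells in IR, and markers of other cells differed in it between libraries. The 4 monocyte markers summed there to 796, 1648 and 1012 CPM in the Control, IR and IR+CBD libraries, and the 6 neutrophil markers to 2516, 9064 and 3127. The 4 T cell markers summed to 7.86, 3.25 and 9.54 CPM there, against 12.3, 8.36 and 7.63 CPM over all cells. Cd3e and Trbc2 had 0 UMIs in every library, Cd3d had 4, 0 and 0, and the rest (21, 2 and 8 UMIs) were Cd8a. The 6 pDC markers summed to 6946, 6816 and 8234 CPM. In the Retnlg gate the 7 erythroid markers summed to 335, 1520 and 1321 CPM, and in the Cd79a gate to 214, 587 and 488. Their part in the gate values was not tested.

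An Irf7 UMI was carried by 829 of 10674 Control cells (7.77%, 7.27 to 8.29), 2831 of 10345 IR cells (27.4%, 26.5 to 28.2) and 868 of 10273 IR+CBD cells (8.45%, lower bound 7.92). After thinning each cell to 2000 UMIs the shares were 1.74%, 5.34% and 1.64%, with 401, 296 and 452 shallower cells left out. Irf7 UMIs were thus found in more cells of the IR library at equal depth. In the Klf1 gate the shares without thinning were 17.4%, 73.2% and 25.3%, at medians of 39670, 42567 and 40039 UMIs per cell. After thinning they were 0.853%, 9.20% and 1.44%. Without thinning, the lowest gate shares were those of the Cd79a gate, 2.64%, 10.2% and 3.18%, at medians of 4042, 3852 and 3416 UMIs. After thinning, the Mpo gate was lowest, at 0.404%, 2.40% and 0.761%. The Cd79a gate then had 0.535%, 2.91% and 0.847%, and the intervals of these gates overlapped in each library. None of these cell types is known to lack Irf7, so a background share from free RNA could not be set, and its part was not tested. The 1% of cells with the most Irf7 UMIs held 28.9%, 13.5% and 26.7% of them in the 3 libraries. This share also depends on how many cells carry a UMI, which were 7.77%, 27.4% and 8.45%.

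Irf9 was higher in IR than Control beyond counting error in 5 of 6 gates. In the Mpo gate the Control, IR and IR+CBD levels were 10.6, 23.2 and 12.4 CPM, and in the Cd79a gate they were 17.4, 37.9 and 21.0 CPM. The IR over Control ratio was 2.18 in both and 2.14 (1.86 to 2.49) in the Retnlg gate, where 264, 638 and 334 UMIs were counted. In the Klf1 gate it stood at 19.2, 32.8 and 24.8 CPM, so IR+CBD lay nearer to IR there than in the other large gates, with a ratio to IR of 0.756 (0.704 to 0.812). In the Siglech gate it stood at 39.6, 56.8 and 52.5 CPM, and the ratios for IR over Control (0.958 to 2.10) and IR+CBD over IR (0.579 to 1.48) were within counting error.

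Stat2 had its largest ratio in the Retnlg gate. The levels there were 7.75, 16.5 and 11.1 CPM in Control, IR and IR+CBD (IR over Control 2.13, 1.69 to 2.71). In the other gates this ratio ran from 0.887 in the Siglech gate (0.598 to 1.28) to 1.34 in the Klf1 gate (1.17 to 1.54). The Siglech gate had the highest Stat2 level in each library, at 62.2, 55.2 and 60.8 CPM, and these 3 values did not differ beyond counting error.

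The ratios of Irf1 differed in size among gates, beside its near-equal library levels. In the Klf1 gate the libraries had 14.5, 24.9 and 19.7 CPM, with an IR over Control ratio of 1.71 (1.53 to 1.93). The ratio was 1.41 (1.31 to 1.52) in the Cd79a gate and 1.34 (1.16 to 1.54) in the Retnlg gate. In the Retnlg gate the IR+CBD level equalled that of IR (34.0 and 33.9 CPM), and both stood above Control (25.4 CPM). In the Siglech gate Irf1 was at 124, 102 and 81.1 CPM, with IR+CBD below Control (0.653, 0.497 to 0.847) and IR within counting error of Control. In the Cd34 Adgrl4 gate, 30.4, 29.4 and 27.7 CPM, IR was within counting error of Control as well. IR+CBD over IR was outside counting error for Irf1 in the Klf1 and Cd79a gates only, of the 6.

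**Figure D3:**
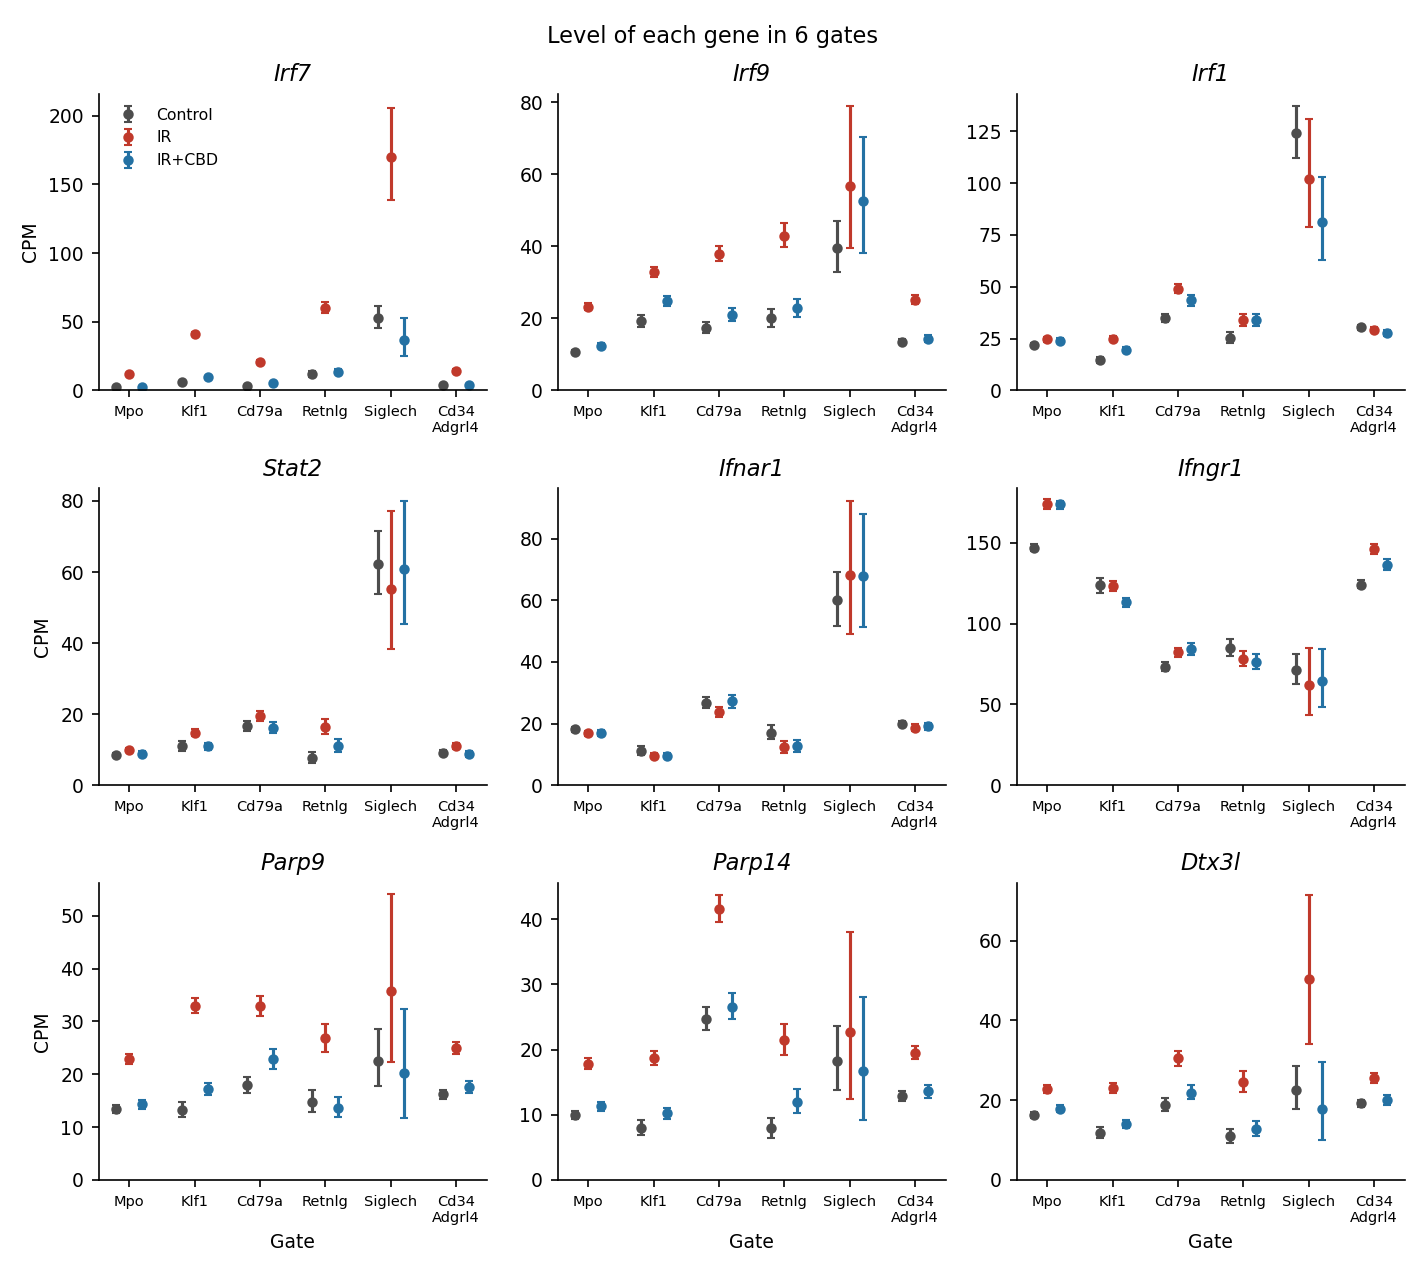
Level of each gene in each of the 6 gates, in CPM on linear axes that start at 0 and differ between panels, with 1 point per library and exact Poisson 95% intervals. Irf7, Irf9, Irf1, Stat2 and Ifnar1 were highest in the Siglech gate in every library, with Irf9 in IR there within counting error of the Retnlg and Cd79a gates, whereas Ifngr1 was highest in the Mpo gate (147 CPM in Control, 174 in IR, 174 in IR+CBD).

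Ifnar1 was lower in IR than in Control beyond counting error in 4 of 6 gates, all except Siglech and Cd34 Adgrl4. The lowest ratio was in the Retnlg gate, where the 3 libraries had 17.1, 12.3 and 12.7 CPM (IR over Control 0.718, 0.587 to 0.877). In the Cd79a gate it was at 26.8, 23.8 and 27.2 CPM, and IR+CBD was 1.14-fold IR (1.03 to 1.26), the single gate where that ratio left counting error. By level the Siglech gate came first (60.0, 68.2 and 68.0 CPM) and the Klf1 gate last (11.2, 9.49 and 9.56 CPM) in every library. In cells that passed 1 gate only, the IR over Control ratio of Ifnar1 stayed below 1 beyond counting error in the Retnlg gate (0.736, 0.570 to 0.950). It was within counting error in the Mpo (0.931, 0.812 to 1.07), Klf1 (0.845, 0.713 to 1.00) and Cd79a (0.919, 0.822 to 1.03) gates.

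Ifngr1 was ordered otherwise. It was highest in the Mpo gate and lowest in the Siglech gate, at 71.3, 61.7 and 64.4 CPM in Control, IR and IR+CBD, where it overlapped the Cd79a gate in each library. IR was above Control in the Mpo gate (1.18, 1.16 to 1.21), the Cd79a gate (1.12, 1.06 to 1.18) and the Cd34 Adgrl4 gate (1.18, 1.14 to 1.21), and below it in the Retnlg gate (0.920, 0.847 to 1.000). In cells that passed the Cd34 Adgrl4 gate and no other, Ifngr1 was lower in IR, at 87.2, 70.7 and 82.8 CPM (IR over Control 0.811, 0.716 to 0.916), so the direction in that gate turned when the cells shared with other gates were left out. In the Cd79a gate the same step gave 0.998 (0.912 to 1.09), and the mean CPM over cells gave 0.970. By level, the Mpo gate stayed highest in cells that passed 1 gate only. The lowest was then Cd79a in Control (46.3 CPM), Siglech in IR (38.8 CPM) and Retnlg in IR+CBD (45.8 CPM). The intervals of the Siglech and Cd79a gates overlapped in each library, and in IR+CBD that of the Retnlg gate overlapped both.

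Parp9 was highest in IR in all 6 gates, with an IR over Control ratio from 1.54 (1.44 to 1.65) in the Cd34 Adgrl4 gate to 2.48 (2.20 to 2.79) in the Klf1 gate. In the Klf1 gate the libraries had 13.3, 33.0 and 17.2 CPM. In the Retnlg gate they had 14.8, 26.8 and 13.7 CPM, so that IR+CBD did not differ from Control beyond counting error there (0.925, 0.755 to 1.13). In the Siglech gate Parp9 rested on 72, 22 and 17 UMIs, its IR over Control ratio of 1.58 (0.932 to 2.58) was within counting error, and in cells of that gate alone the ratio was 1.05 (0.477 to 2.08). In Control its level ran from 22.6 CPM in the Siglech gate to 13.3 CPM in the Klf1 gate, and each gate overlapped its neighbour in the order although the ends did not overlap.

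Parp14 was highest in the Cd79a gate, with 24.7, 41.6 and 26.6 CPM, although the Siglech gate overlapped it in Control and IR+CBD. Its largest IR over Control ratio was in the Retnlg gate, at 7.90, 21.4 and 12.0 CPM (ratio 2.71, 2.16 to 3.41), where IR+CBD stayed 1.52-fold above Control (1.18 to 1.95). In the Siglech gate 58, 14 and 14 UMIs gave 18.2, 22.7 and 16.7 CPM, and differences there were not detectable at this depth. Dtx3l was higher in IR than in Control beyond counting error in all 6 gates, by 1.33-fold (1.24 to 1.42) in the Cd34 Adgrl4 gate to 2.25-fold (1.85 to 2.75) in the Retnlg gate. In the Retnlg gate it was at 10.9, 24.6 and 12.9 CPM. It was lower in IR+CBD than in IR in all 6, with the lowest ratio, 0.355 (0.178 to 0.678), in the Siglech gate, on 31 and 15 UMIs.

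Counted by gate, the members at least 1.5-fold higher in IR than in Control were 4 of 9 in the Mpo gate (5.47% of all genes), 6 in the Klf1 gate (6.26%), 5 in the Cd79a gate (7.93%), 6 in the Retnlg gate (7.47%), 3 in the Siglech gate (8.26%) and 4 in the Cd34 Adgrl4 gate (4.81%). Irf7 and Parp9 passed in every gate, Parp9 within counting error in the Siglech gate. The members at least 1.5-fold lower in IR+CBD than in IR were 4 in the Mpo gate (4.21%), 4 in the Klf1 gate (7.19%), 3 in the Cd79a gate (5.49%), 5 in the Retnlg gate (5.70%), 3 in the Siglech gate (8.0%) and 2 in the Cd34 Adgrl4 gate (4.54%). Irf7 was the single member that passed in every gate. Neither Ifnar1 nor Ifngr1 passed in any gate. The gates overlap in cells and share libraries, so their counts are not independent.

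**Figure D4:**
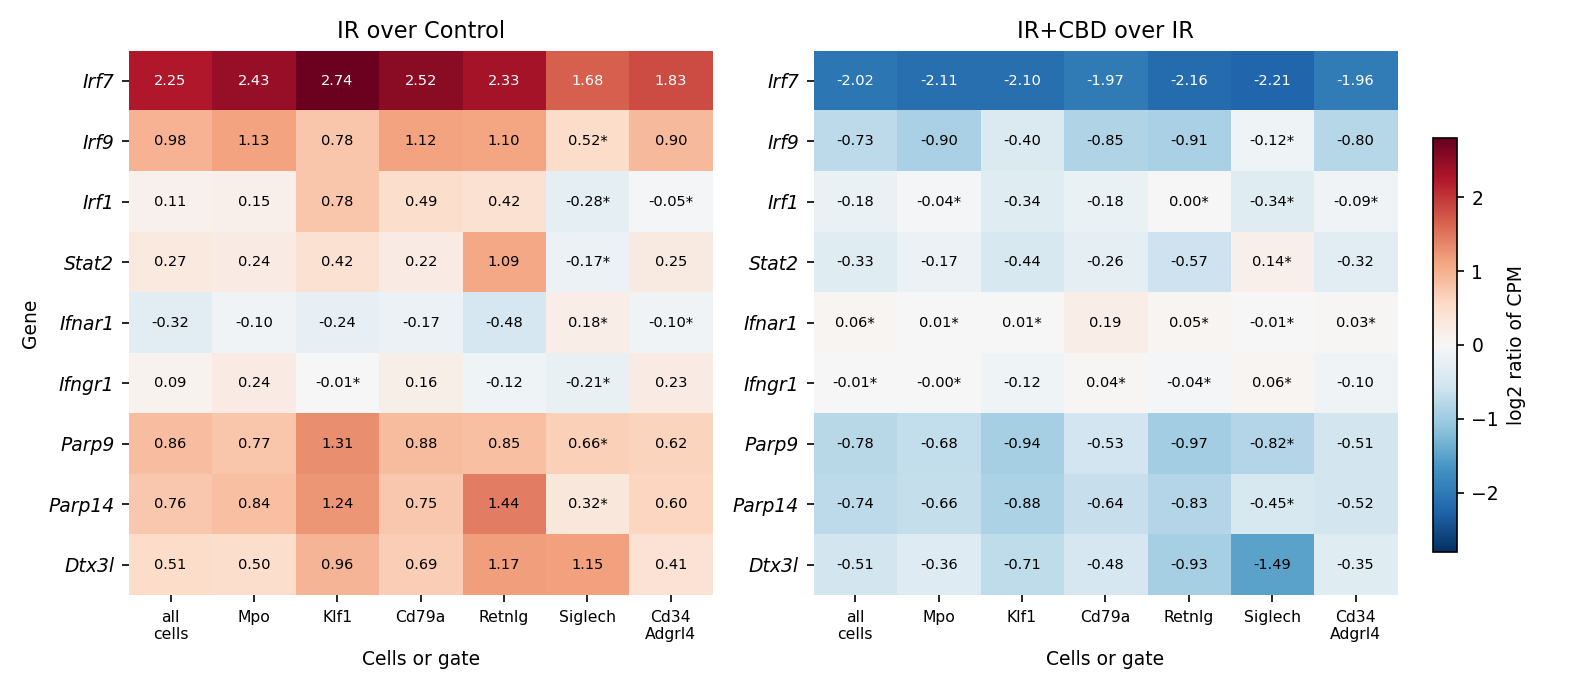
log2 ratio of CPM for IR over Control (left) and IR+CBD over IR (right), by gene and by all cells or gate, with red for higher and blue for lower and an asterisk where the 95% counting interval holds 0 on the log2 scale. Irf7 runs from 1.68 to 2.74 on the left and from -2.21 to -1.96 on the right, and the row of Ifnar1 stays between -0.48 and 0.19 in both panels.

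The Cd34 Adgrl4 gate was narrowed to the 863 Control, 211 IR and 277 IR+CBD cells that passed no other gate. This left out 72.3%, 89.2% and 85.9% of the gate's cells, so the part kept differed between libraries. The markers were not read in the cells kept, and their cell type was not checked. In these cells Irf7 was at 11.7, 36.1 and 8.81 CPM. The IR over Control ratio was 3.08 (2.47 to 3.84) and the IR+CBD over IR ratio 0.244 (0.171 to 0.343). Irf9 was at 25.1, 38.8 and 20.9 CPM and Dtx3l at 30.8, 41.6 and 25.8 CPM, both highest in IR. Parp9 was 1.27-fold Control in IR (1.06 to 1.53), and Parp14 was within counting error of Control (1.12, 0.901 to 1.38) but lower in IR+CBD than in IR (0.685, 0.515 to 0.908). In these cells the IR over Control ratio of Irf7 lay above those of Parp9, Parp14 and Dtx3l beyond counting error. That of Irf9 (1.55, 1.29 to 1.86) overlapped those of Parp9, Parp14 and Dtx3l (1.35, 1.13 to 1.60). Stat2 (1.29, 0.956 to 1.73) and Irf1 (0.946, 0.823 to 1.08) were within counting error of Control. In the 1688, 1168 and 1357 cells that passed no gate, Irf7 was at 14.0, 49.4 and 15.0 CPM.

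Parp9, Dtx3l and Parp14 lie together on mouse chromosome 16. In the GENCODE M21 annotation of GRCm38, Parp14 spans chr16:35832874-35871544 on the minus strand, Dtx3l chr16:35926511-35939151 on the minus strand and Parp9 chr16:35938470-35972605 on the plus strand. Parp9 and Dtx3l are arranged head to head with overlapping 5′ ends and starts 681 bases apart. On either side, Hspbap1 and Dirc2, then Kpna1 and Wdr5b, follow. In IR over Control these neighbours had ratios of 1.25 (Hspbap1, 1.18 to 1.33), 0.843 (Dirc2, 0.817 to 0.869), 0.867 (Kpna1, 0.846 to 0.887) and 1.00 (Wdr5b, 0.885 to 1.13). In IR+CBD over IR they ranged from 0.951 (Wdr5b) to 1.12 (Dirc2). The 3 members had ratios farther from 1 in both comparisons than the 4 genes beside them, none of which passed 1.5-fold. Irf9 overlaps Rnf31 on the same strand, with 1623, 2110 and 1548 UMIs in Control, IR and IR+CBD for Rnf31, and reads that fit both genes may be assigned to neither.

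**Figure D5:**
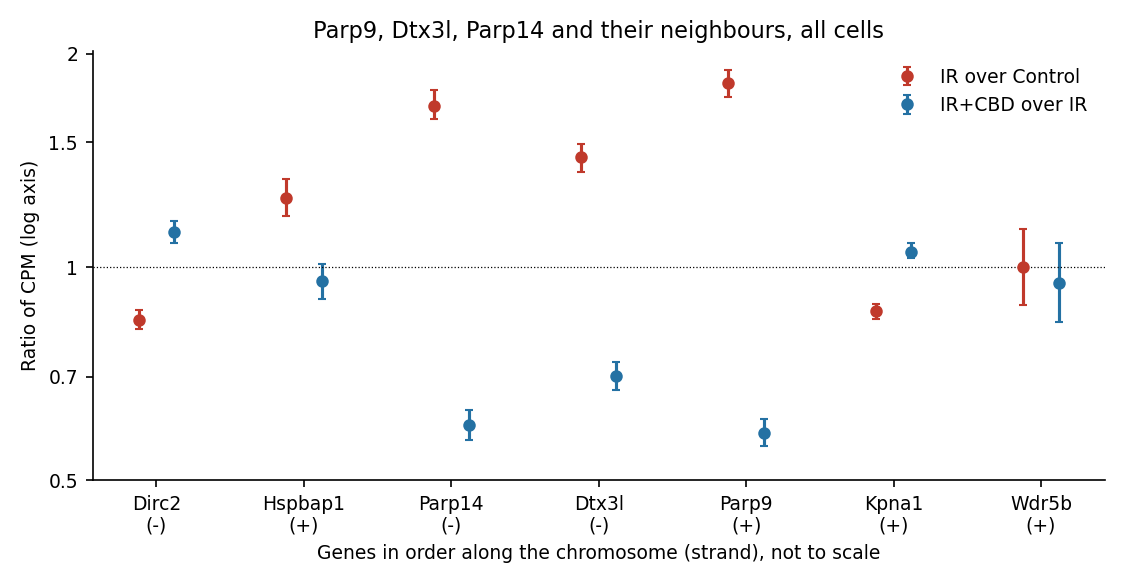
Ratio of CPM over all cells, on a log axis, for the 7 genes in their order along chromosome 16, with the strand in brackets and exact 95% counting intervals. Red points are IR over Control and blue points IR+CBD over IR, and Parp14 (1.69 and 0.598), Dtx3l (1.43 and 0.702) and Parp9 (1.82 and 0.584) stand apart from the dotted line at 1.

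The promoters of the members were read for the sites through which these factors act on DNA. RefSeq promoter windows (GRCm38.p6, 250 bases before to 50 after a gene's start) were at hand for 7 members, and 3 of them held a match on either strand to the interferon-stimulated response element, searched as GAAA, any 2 bases and GAAA and found in 3.44% of 32851 promoters, or to the gamma-activated site TTCNNNGAA, found in 8.30%. The 250 bases before the start are shown, with matches in capitals, for Stat2 and Irf1, which held matches there, and for Irf7, which had the largest ratio and held none. The Stat2 window (chr10:128270248-128270497, plus strand) has TTTCAGTTTC, the reverse complement of a response element, from 222 to 213 bases before the start. The Irf1 window (chr11:53769764-53770013, plus strand) has TTCCCCGAA, a gamma-activated site, from 90 to 82 bases before the start. The Irf7 window (chr7:141266425-141266674) is on the minus strand.
Stat2: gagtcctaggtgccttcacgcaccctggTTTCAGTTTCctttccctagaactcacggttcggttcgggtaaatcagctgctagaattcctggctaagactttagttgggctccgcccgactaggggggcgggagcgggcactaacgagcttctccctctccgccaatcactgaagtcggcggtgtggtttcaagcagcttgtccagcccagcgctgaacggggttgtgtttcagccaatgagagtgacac
Irf1: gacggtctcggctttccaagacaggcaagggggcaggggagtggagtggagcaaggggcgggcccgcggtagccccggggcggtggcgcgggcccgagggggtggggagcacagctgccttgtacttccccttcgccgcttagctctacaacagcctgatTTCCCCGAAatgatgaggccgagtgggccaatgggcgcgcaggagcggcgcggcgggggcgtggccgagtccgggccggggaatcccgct
Irf7: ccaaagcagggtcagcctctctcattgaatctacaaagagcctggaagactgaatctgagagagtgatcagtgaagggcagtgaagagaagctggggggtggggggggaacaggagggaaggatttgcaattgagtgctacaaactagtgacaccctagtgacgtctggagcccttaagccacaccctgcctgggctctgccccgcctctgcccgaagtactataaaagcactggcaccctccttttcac
Ifnar1 held TTCACGGAA across its start, from 5 bases before to 3 after it. The windows of Irf9, Ifngr1 and Dtx3l held no match to these letters. Stat2, with the response element in this window, was 1.20-fold Control in IR, and Irf7, without a match in its window, was 4.74-fold. Whether these letters bear on the ratios was not tested. The search covered these letters in these windows only, so a gene without a match may hold a site elsewhere or in other letters. A match is a description of the letters and not a shown binding site.

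The genes around the members in the pathway were read from lists of receptors, kinases, STATs, IRFs, feedback inhibitors, PARPs, deltex ligases and nucleic acid sensors, 54 genes besides the members. In IR over Control 6 of these were at least 1.5-fold higher (6.71% of all genes) and 3 lower (12.3%), and in IR+CBD over IR 6 were lower (5.03%) and 0 higher (5.10%), with median log2 ratios of -0.09 and -0.03. Usp18, which restrains the type I receptor, was at 2.89, 16.1 and 4.02 CPM, and its ratios were 5.55 (5.08 to 6.08) and 0.250 (0.230 to 0.271). The cytosolic RNA sensor genes Dhx58 (5.15, 14.2 and 5.72 CPM), Ifih1 (13.6, 27.6 and 18.1 CPM) and Ddx58 (12.0, 18.5 and 12.1 CPM) were all highest in IR. Of the PARP family, 16 genes with Parp9 and Parp14 included, one further gene passed, Parp12, at 4.42, 8.54 and 3.64 CPM. The same 6 genes made up the lower count in IR+CBD over IR.

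Of the genes that were lower in IR than in Control, Socs3, a feedback inhibitor of cytokine receptors, was at 14.5, 5.95 and 6.55 CPM in Control, IR and IR+CBD. Tlr7, an endosomal RNA sensor, was at 3.41, 2.18 and 1.86 CPM. For both the IR+CBD level lay near that of IR and not that of Control. The second chains of the receptors also stayed inside 1.5-fold: Ifnar2 was at 71.0, 64.8 and 63.0 CPM and Ifngr2 at 34.8, 31.5 and 29.1 CPM. Over the 6 receptor genes and the 3 kinases, 0 passed 1.5-fold in any comparison.

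The interferon genes themselves were hardly counted. Of 21 type I, II and III interferon genes in the matrices, 13 had no UMI in any library, which allows up to 3 UMIs in each. Ifng had 241, 207 and 180 UMIs in Control, IR and IR+CBD, in 115, 62 and 74 cells, and its CPM in IR+CBD was within counting error of IR (1.01, 0.826 to 1.24). Ifnb1 had 4, 7 and 16 UMIs, Ifnz 4, 8 and 17, Ifnk 10, 11 and 15, and Ifna2 1, 4 and 10. Ifnab had 2, 1 and 0 UMIs, Ifna4 0, 1 and 0, and Ifna16 0, 0 and 3. Unlike Irf7, Ifnb1 had its most UMIs in IR+CBD, where its ratio to IR was 2.67 (1.04 to 7.66), and Ifnz likewise, 2.48 (1.01 to 6.64). At such counts a few cells can set the value.

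The likeness of the members to other genes was taken as the Pearson correlation of log2 CPM over 18 points, the 6 gates in 3 libraries, among 8385 genes with at least 50 UMIs in each gate. The points share libraries and cells, so the values are descriptions. Among the genes most like Irf7 were Irf9 (r = 0.949) and H2-T24 (0.912), and among those most like Irf9 were Irf7 and H2-T24 (0.918). Stat2 was most like Trim25 (0.967), Scand1 (0.950) and Tapbp (0.947), and among the genes most like Irf1 were Trim25 (0.957) and Rab33b (0.954). Irf7 and Irf9 thus shared H2-T24 among their nearest genes, and Irf1 and Stat2 shared Trim25. Parp9 was most like Xaf1 (0.936), H2-Q7 (0.898) and B2m (0.898), Parp14 most like H2-Q4 (0.923), H2-Q6 (0.888) and Trim34a (0.867), and Dtx3l most like Tap1 (0.939), H2-K1 (0.936) and Ogfr (0.933). Ifnar1 was most like Uvrag (0.995), Kmo (0.988) and Gm37642 (0.986), and Ifngr1 most like Vps13c (0.960), Abhd11 (0.950) and Tfdp1 (0.948). Among members, Parp9 and Dtx3l had r = 0.87, Parp9 and Parp14 0.81, and Irf7 and Ifngr1 -0.59.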

How the data were processed

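BMNCs of the Control, IR and IR+CBD groups gave 1 droplet library each (10x 3' chemistry, 3 mice pooled). The authors deposited raw UMI counts per gene and called cell, without normalization. The file headers name Cell Ranger 7.0.1, the submitters' processing notes and the methods version 4.0, and the notes name GRCm39. The later version counts intronic reads by default, so whether the UMIs and CPM here include them is not known. Since the reference used here was GRCm38, positions and promoters are on GRCm38 throughout.

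Kept were cells with at least 200 genes and at most 5% mitochondrial UMIs (below the first limit were 44, 250 and 432 barcodes in Control, IR and IR+CBD, above the second 1526, 1597 and 1600). UMIs were summed per library and gate and scaled to CPM. The kept cells held 194839224, 202361682 and 173466089 UMIs. Levels have exact Poisson intervals, ratios exact conditional binomial intervals and shares exact Clopper-Pearson intervals. Log2 medians used a pseudocount of 0.5 UMI. Genes needed 20 UMIs in the compared libraries together, and a fold of 1.5 was the limit. The interval and ratio steps were tested on simulated data. Doublets were kept, and removed with Scrublet (scanpy 1.11.5) as an alternative. Python 3.11.15, numpy 2.4.6, scipy 1.17.1, pandas 2.3.3 and matplotlib 3.10.9 were used.

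Named were all members, pathway-list genes past 1.5-fold in IR over Control or IR+CBD over IR, interferon genes with a UMI, 2 neighbours on each side of the Parp9 locus and the 3 most alike genes per member. Some genes that this rule names are not reported here. Ifnar2 and Ifngr2 were added after their values were seen. The members and lists were chosen with earlier results of these data known. Alternatives were other cell filters, doubled gate limits, cells in a single gate, means over cells, gates weighted by Control shares, median-ratio scaling, and other limits on fold and UMIs.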

Additional observations from a re-analysis of the deposited data

Results flagged for a closer look

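The IR over Control ratio of Ifngr1 had different directions in different gates, each outside counting error. Ifngr1 was higher in IR in the Mpo gate (1.18), the Cd79a gate (1.12) and the Cd34 Adgrl4 gate (1.18), and lower in the Retnlg gate (0.920). With 1 library per group the difference between gates was not tested. Without the cells that passed more than 1 gate the ratio was 0.998 in the Cd79a gate, 0.811 in the Cd34 Adgrl4 gate and 0.735 in the Retnlg gate, and it stayed above 1 in the Mpo gate (1.12).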

How the results depend on the processing

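A ratio was counted as reversed where its reported counting interval left out 1 and the alternative lay on the other side of 1. Of 189 ratios over all cells under the alternatives, 135 stayed inside the reported interval, 46 moved outside it on the same side of 1, 4 reversed and 4 more, whose reported interval held 1, moved outside it to the other side. Within gates the numbers were 1048, 65, 8 and 13 of 1134. Over all cells no member reversed in IR over Control or IR+CBD over IR. The Irf7 ratio ranged from 3.59 to 4.94 in IR over Control and from 0.245 to 0.259 in IR+CBD over IR. The count of members past 1.5-fold stayed at 4 or 5 in both comparisons under every other choice of cells or scaling, and at 0 in IR+CBD over Control. At a fold of 2 it was 1 in IR over Control and 1 in IR+CBD over IR, since fewer genes reach that limit. Without cells in more than 1 gate, these ratios reversed: Parp9 over all cells in IR+CBD over Control (0.967), Stat2 in the Mpo gate in IR+CBD over IR (1.00), Ifngr1 in the Cd79a gate in IR over Control (0.998) and Ifngr1 in the Cd34 Adgrl4 gate in all 3 comparisons (0.811, 1.17 and 0.950). The ratios that crossed 1 from an interval that held it included Parp14 (0.897) and Dtx3l (0.938) over all cells, and Irf9 (0.834), Parp9 (0.924), Parp14 (0.765) and Dtx3l (0.837) in the Cd34 Adgrl4 gate, all in IR+CBD over Control without cells in more than 1 gate. With the mean CPM over cells, Irf7 (0.932) and Parp9 (0.992) over all cells in IR+CBD over Control reversed, as did Irf1 in the Mpo gate in IR over Control (0.991) and in IR+CBD over Control (0.981), and Ifngr1 in the Cd79a gate in IR over Control (0.970). With gates weighted by Control shares, Irf1 over all cells in IR+CBD over Control was 1.06. The causes were not tested. The background shares of all genes depend on the UMI minimum: with at least 100 UMIs 4.49% were higher in IR over Control, 2.0% lower in IR+CBD over IR and 10.4% past the limit in either direction in IR+CBD over Control, and with at least 1 UMI the same shares were 16.5%, 17.6% and 36.4%. At a fold of 2, 4 pathway-list genes were higher in IR over Control (2.83% of all genes) and 2 lower (5.14%), and 3 were lower in IR+CBD over IR (1.85%) and 0 higher (1.53%). Median-ratio scaling shifted log2 ratios by at most 0.063. Depth limits the Siglech gate most, with 615863 UMIs in IR. No paired analysis was possible because each group is 1 library.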
